A study of Mus musculus with 24 samples.

Results

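Type I interferon, its receptor and the genes that interferons switch on were followed in splenic dendritic cells (DCs) of newborn mice by their transcript levels on 24 Affymetrix mouse arrays. A list of 43 genes was searched for among the probe sets that carry the symbol of 1 gene. It yielded 54 probe sets of 40 genes, of 22626 probe sets and 12393 genes in all. Of these 40 genes, 29 had 1 probe set, 8 had 2 and 3 had 3. Isg15, Ifi44 and Tgtp1 had no probe set of their own and were not analysed here.

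All pups were BALB/c mice and their DCs were CD11c+ cells taken from the spleen on magnetic beads at day 14 of life. Asthma-at-risk pups were born to mothers made allergic to ovalbumin (OVA) with OVA and alum injections and later OVA aerosols, and mated with normal males. Normal pups were born to normal mothers. Naïve pups received nothing. Stimulated pups received an intraperitoneal injection, 1 in all, that held OVA (5 µg) and alum (1 mg), at day 3 by the sample labels and at day 4 by the study's methods, so the allergen and the adjuvant were always given together. In Set 1 there were 3 arrays of normal and 4 of at-risk pups without the injection, and 4 arrays of each kind of pup with it. Set 2 consisted of stimulated pups alone, 4 arrays of normal and 5 of at-risk pups. Array numbers run by group in both sets, with naïve arrays at AF76 to AF83 and stimulated ones at AF84 to AF91 in Set 1. The condition and any difference in preparation or run between such blocks cannot be told apart. By the study's methods Set 2 was NuGEN amplified, and no amplification is named for Set 1. How many pups gave the RNA of an array is not stated in the sources used here, so p-values measure the spread between arrays.

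Interferon beta is secreted and binds a receptor of the chains Ifnar1 and Ifnar2. The receptor activates a complex that includes Stat2 and Irf9, which enters the nucleus and binds interferon-stimulated response elements (ISREs) in the promoters of antiviral genes. Many of these genes also answer to interferon gamma, a product of NK and T cells, and plasmacytoid DCs are known as strong producers of type I interferon.

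Values are log2 RMA intensities, and a difference of 1 is a 2-fold change. A probe set was called where limma's Benjamini-Hochberg adjusted p over all 22626 probe sets was 0.05 or less and the fold was 1.25 or more. A gene is represented by its probe set with the highest mean, its leading probe set, unless another is named. The DC marker Itgax, which encodes CD11c, was bright, at 12.63 to 13.10 as was the class II gene H2-Ab1 at 13.59 to 13.88 over the 24 arrays, while markers of other cells were also measured and are given beside the results. Array AF79 of the naïve normal group correlated with the median of its group at r = 0.9908 over all probe sets, and AF123 and AF125 of the stimulated at-risk group of Set 2 at r = 0.9935 and 0.9947. The other 21 arrays had r of 0.996 or more. Results that rest on these arrays are also given without them. The sets were processed separately by the study's methods, so levels are compared within a set only. Groups are called apart where no values overlap, which is common with 3 to 5 arrays per group. This held for 8 of the 54 probe sets between the naïve groups, against 11.1% of all. After the injection it held for 24 in normal and 20 in at-risk pups, against 21.9% and 17.7%. Between the stimulated groups it held for 8 in Set 1 and 12 in Set 2, against 6.2% and 10.1%.

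Ifnb1, which encodes interferon beta, was lower in naïve at-risk than in naïve normal DCs, and lower still in the stimulated groups of Set 1. It stood at 6.36, 6.23 and 6.20 on the naïve normal arrays and at 5.08, 5.43, 5.36 and 4.98 on the naïve at-risk arrays. On the stimulated arrays of Set 1 it stood at 4.09, 4.39, 4.57 and 4.45 in normal pups and at 4.17, 4.13, 4.48 and 4.54 in at-risk pups. The naïve groups did not overlap with one another or with the stimulated groups, while the stimulated groups overlapped. In Set 2 it stood at 4.41, 4.22, 4.38 and 4.49 in normal pups and at 4.23, 4.18, 4.55, 4.20 and 4.07 in at-risk pups, which also overlapped. The lower quartile of all probe sets lay between 4.99 and 5.09 on every array, so the stimulated values are those of a dim probe set. The naïve at-risk values, from 4.98 to 5.43, lay near that quartile, and no detection call came with any of these values.

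The difference between naïve at-risk and naïve normal DCs in Ifnb1 was -1.05 ± 0.14 (SE), adjusted p = 0.00368, with a 95% interval of -1.34 to -0.76. It was -1.09 (adjusted p = 0.014) without AF79. After the injection Ifnb1 fell by 1.89 ± 0.14 (SE) on the log2 scale in normal pups (adjusted p = 5.87e-07) and by 0.88 ± 0.13 (SE) in at-risk pups (adjusted p = 0.000262). These 3 comparisons share arrays, since the naïve groups enter both the maternal and the allergen comparisons. Each also has a group near or under the lower quartile of all probe sets.

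The receptor chains and the signal transducers were nearly level by their leading probe sets. Ifnar1 stood at 10.64, 10.61 and 10.29 in naïve normal and 10.70, 10.62, 10.68 and 10.62 in naïve at-risk DCs. It stood at 10.51, 10.53, 10.57 and 10.59 in stimulated normal and 10.46, 10.52, 10.59 and 10.51 in stimulated at-risk DCs of Set 1. In Set 2 it stood at 11.07, 11.00, 10.99 and 11.04 in normal and 11.00, 11.07, 11.06, 11.06 and 11.05 in at-risk DCs. None of the comparisons called it, and apart from AF79 at 10.29 its arrays lay within a narrow band in each set. Its at-risk groups of Set 1 were apart, with a difference of -0.13 after the injection.

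Ifnar2, the other chain, stood at 11.60, 11.40 and 11.57 in naïve normal, 11.47, 11.44, 11.46 and 11.47 in naïve at-risk, 11.45, 11.26, 11.27 and 11.26 in stimulated normal and 11.28, 11.37, 11.32 and 11.27 in stimulated at-risk DCs of Set 1. In Set 2 it stood at 11.40, 11.29, 11.11 and 11.30 and at 11.21, 11.21, 11.24, 11.09 and 11.15 in normal and at-risk DCs. Its difference after the injection was -0.21 ± 0.07 (SE) in normal pups and -0.15 in at-risk pups, both under the 1.25-fold limit. The at-risk groups were apart. A second probe set of Ifnar2, 1427691_a_at, ran the other way, at 10.42, 10.38 and 10.00 in naïve normal and 10.64, 10.63, 10.64 and 10.58 in stimulated normal DCs. It was called higher in normal pups (0.36 ± 0.09 (SE), adjusted p = 0.0159), and its difference was 0.22 (adjusted p = 0.0419) without AF79, which is under the fold limit. The call was also lost in a fit of the compared groups alone (adjusted p = 0.0905) and with array weights, at 0.24. Between the naïve groups this probe set was apart and 0.26 higher in at-risk DCs, or 0.13 without AF79, and was not called. The probe sets of Ifnar2 therefore gave no common direction.

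Stat2 stood at 9.96, 9.76 and 9.98 in naïve normal, 9.94, 9.95, 10.12 and 10.06 in naïve at-risk, 9.91, 10.11, 10.05 and 10.01 in stimulated normal and 9.76, 9.77, 10.07 and 10.27 in stimulated at-risk DCs of Set 1. The groups overlapped. In Set 2 it stood at 9.94, 9.97, 10.14 and 10.19 in normal and 10.20, 10.08, 9.87, 10.08 and 10.03 in at-risk DCs. Its other probe set, 1450403_at, was called higher after the injection in normal pups, from 8.28, 8.11 and 7.72 to 8.35, 8.74, 8.46 and 8.62 (0.51 ± 0.13 (SE), adjusted p = 0.0187). The call was lost without AF79, at 0.35 (adjusted p = 0.0797), and without AF85 or AF87, at 0.44 and 0.48. It was also lost in a fit of the compared groups alone (adjusted p = 0.0787). Between the naïve groups this probe set was apart and 0.48 higher in at-risk DCs, at 8.61, 8.53, 8.52 and 8.41. It was not called there, and the difference was 0.32 (adjusted p = 0.397) without AF79. Irf9 was level, at 10.89, 10.89 and 10.94 in naïve normal, 10.99, 10.87, 10.94 and 10.84 in naïve at-risk, 10.88, 10.95, 10.97 and 11.04 in stimulated normal and 10.90, 10.96, 10.99 and 11.04 in stimulated at-risk DCs of Set 1. In Set 2 Irf9 stood at 11.07, 11.13, 11.09 and 11.16 in normal and 10.66, 10.95, 10.95, 10.90 and 11.02 in at-risk DCs, which did not overlap, with a difference of -0.21 ± 0.08 (SE), adjusted p = 0.153. Irf7, which drives further interferon transcription, differed by -0.26 and -0.19 after the injection in normal and at-risk pups, and Irf1 by -0.27 and -0.08. Neither was called, although Irf7 was called lower in normal pups without AF79, at -0.43 (adjusted p = 0.00427).

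**Figure D1:**
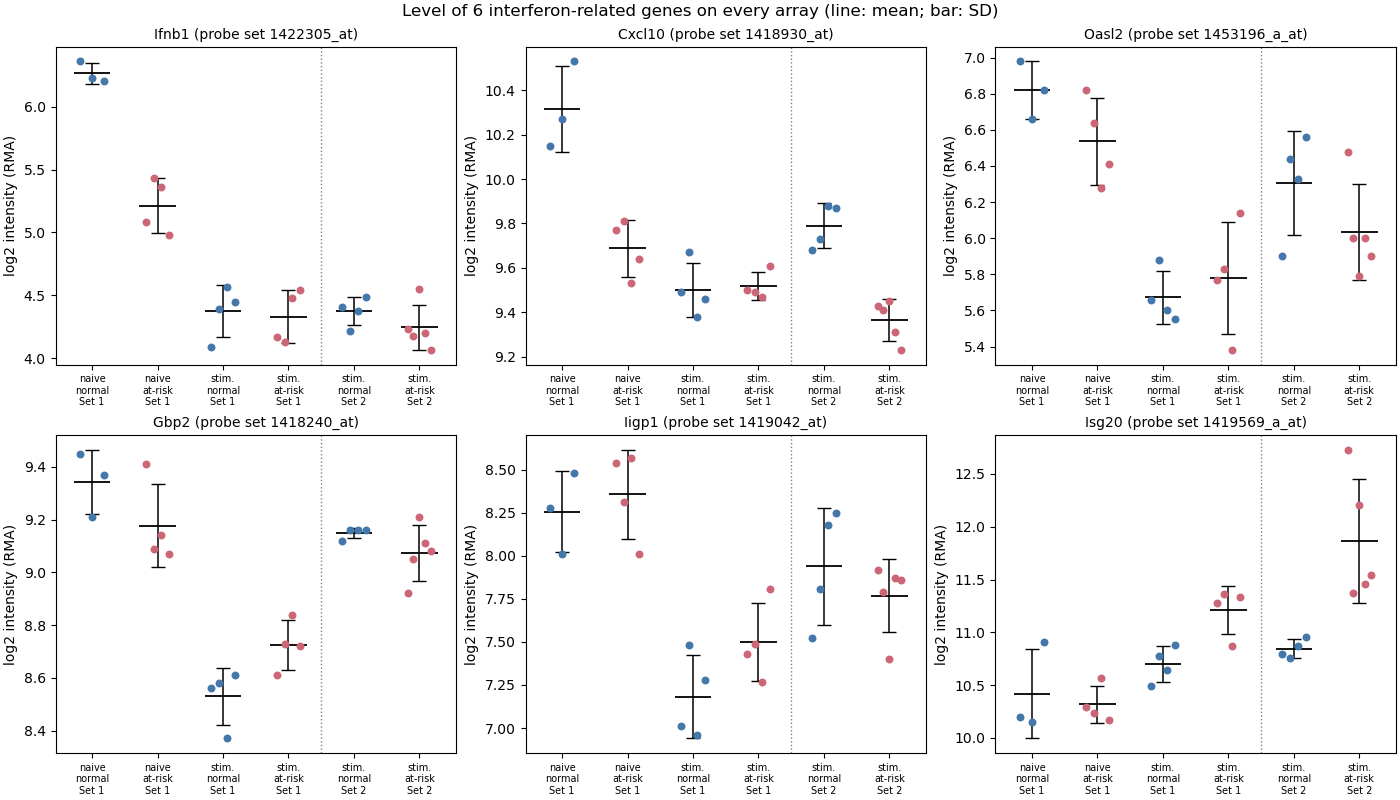
Log2 RMA intensity (vertical axis) of the leading probe sets of Ifnb1, Cxcl10, Oasl2, Gbp2, Iigp1 and Isg20 in the 6 groups (horizontal axis), with 1 point per array, a line at the group mean and a bar of 1 SD. Blue marks normal and red at-risk pups, and the dotted line parts Set 1 from Set 2. Ifnb1 runs from 6.20 to 6.36 in naïve normal DCs and from 4.07 to 4.57 on all stimulated arrays, while Isg20 reaches 12.73 in stimulated at-risk DCs of Set 2.

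Between naïve at-risk and naïve normal DCs few of the 54 probe sets differed. Ifnb1 and Cxcl10 were called lower in at-risk pups, that is 2 of 54, and 0.239% of all probe sets were called lower. No member was called higher. The median difference of the 54 was 0.04, and that of all probe sets was 0. Cxcl10, a chemokine that draws Cxcr3-bearing T and NK cells, stood at 10.15, 10.27 and 10.53 in naïve normal and 9.77, 9.81, 9.53 and 9.64 in naïve at-risk DCs. The groups did not overlap, and the difference was -0.63 ± 0.10 (SE), adjusted p = 0.0127. It was -0.53 (adjusted p = 0.0369) without AF79, and in a fit of these 7 arrays alone it kept its size but had an adjusted p of 0.161. Cxcl9, which acts on the same receptor, differed by -0.11 ± 0.08 (SE), adjusted p = 0.506. Of the other interferon pathway genes, listed apart from the members, 0 of 56 measured were called by limma in naïve DCs, against 0.34% of all probe sets.

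The injection of OVA with alum went with lower levels of many interferon-induced genes in normal pups. In Set 1, 18 probe sets were called lower, against 5.76% of all probe sets, and 3 were called higher, against 5.73% of all. By leading probe sets, 15 of the 40 genes were called lower, against 6.33% of the 12393 genes, and 0 higher. The 3 that were called higher were the lesser probe sets of Ifnar2, Stat2 and Trim21. The median of the 54 was -0.12, and that of all probe sets was 0. In at-risk pups 8 probe sets were called lower, against 3.46% of all, and 4 higher, against 4.42% of all, with a median of -0.09 against -0.01. Without AF79 the counts in normal pups were again 18 lower and 3 higher, and 17 of the 21 were shared with those called on all arrays.

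Among the antiviral effectors, Oasl2, a relative of the oligoadenylate synthetases, stood at 6.98, 6.66 and 6.82 in naïve normal and 5.66, 5.88, 5.60 and 5.55 in stimulated normal DCs. In at-risk pups it stood at 6.82, 6.64, 6.28 and 6.41 before and 5.77, 5.83, 5.38 and 6.14 after the injection. Neither pair of groups overlapped, and the differences were -1.15 ± 0.16 (SE), adjusted p = 2e-04 in normal and -0.76 ± 0.15 (SE), adjusted p = 0.00336 in at-risk pups. Oasl1, which restrains Irf7 translation, fell in normal pups from 8.39, 8.45 and 8.63 to 7.95, 7.81, 7.75 and 7.84 (-0.65 ± 0.14 (SE), adjusted p = 0.00439). In at-risk pups it stood at 8.25, 8.56, 8.23 and 8.24 and then at 7.73, 8.33, 8.03 and 8.40, which overlapped, with a difference of -0.20 ± 0.13 (SE).

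The Ifit genes encode proteins that bind viral RNA. Ifit3 fell in normal pups from 9.79, 9.64 and 9.40 to 8.84, 8.96, 8.94 and 9.0 (-0.68 ± 0.12 (SE), adjusted p = 0.00183), and in at-risk pups it stood at 9.78, 9.69, 9.40 and 9.35 and 9.08, 9.36, 9.42 and 9.50. Ifit2 fell in normal pups from 9.92, 9.72 and 9.61 to 9.29, 9.45, 9.39 and 9.24 (-0.41 ± 0.09 (SE), adjusted p = 0.00757), and in at-risk pups it stood at 9.80, 9.60, 9.50 and 9.54 and 9.42, 9.62, 9.61 and 9.55. The normal groups of both genes were apart and the at-risk groups overlapped. Ifit1 stood at 7.87, 7.69 and 8.69 in naïve normal and 7.24, 7.62, 7.25 and 7.46 in stimulated normal DCs (-0.69 ± 0.19 (SE), adjusted p = 0.023). The highest naïve value was that of AF79, and the difference was -0.39 (adjusted p = 0.0703) without it, which was not called. The call was also lost without AF84 or AF86, at -0.64 and -0.65, and that of Ifit2 without AF76, at -0.32, just under the fold limit. That of Ifit1 was lost as well in a fit of the compared groups alone (adjusted p = 0.109) and with array weights, at -0.39 (adjusted p = 0.0671). In at-risk pups Ifit1 stood at 8.02, 7.72, 7.74 and 7.50 and 7.80, 7.97, 7.90 and 8.03.

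The 6 guanylate-binding proteins and immunity-related GTPases of the list, apart from Mx1 and Mx2, had lower means after the injection in normal pups, and 4 of them were called. These proteins attack the vacuoles of intracellular microbes and are known as strong targets of interferon gamma. Gbp2 stood at 9.45, 9.21 and 9.37 in naïve normal, 8.56, 8.58, 8.37 and 8.61 in stimulated normal, 9.41, 9.09, 9.14 and 9.07 in naïve at-risk and 8.61, 8.73, 8.84 and 8.72 in stimulated at-risk DCs. Naïve and stimulated arrays did not overlap in either kind of pup, and Gbp2 changed by -0.81 ± 0.09 (SE), adjusted p = 3.86e-05 in normal and by -0.45 ± 0.09 (SE), adjusted p = 0.00296 in at-risk pups. Its other probe set, 1435906_x_at, stood at 8.69, 8.39 and 9.19 and 7.74, 7.57, 7.50 and 7.27 in naïve and stimulated normal DCs, and at 8.50, 7.99, 7.91 and 8.12 and 7.52, 7.40, 7.91 and 7.77 in at-risk DCs. It was called in normal pups, at -1.23 ± 0.18 (SE) and not in at-risk pups, at -0.48 ± 0.17 (SE), adjusted p = 0.106.

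Gbp3 stood at 9.81, 9.55 and 9.58 in naïve normal and 8.98, 9.16, 9.03 and 8.98 in stimulated normal DCs (-0.61 ± 0.07 (SE), adjusted p = 6.63e-05). In at-risk pups it stood at 9.38, 9.36, 9.48 and 9.35 and 8.96, 8.91, 9.01 and 9.06 (-0.41 ± 0.07 (SE), adjusted p = 0.00104). Gbp3 was thus apart between naïve and stimulated arrays in both kinds of pup. Iigp1 stood at 8.28, 8.01 and 8.48 and 7.01, 7.48, 6.96 and 7.28 in naïve and stimulated normal DCs, and at 8.54, 8.31, 8.57 and 8.01 and 7.43, 7.49, 7.27 and 7.81 in at-risk DCs. Its changes were -1.08 ± 0.17 (SE), adjusted p = 0.000477 in normal and -0.86 ± 0.15 (SE), adjusted p = 0.0019 in at-risk pups, and its other probe set gave -1.14 and -0.92, both called. Ifi47 fell in normal pups from 11.11, 11.01 and 11.24 to 10.55, 10.76, 10.49 and 10.59 (-0.52 ± 0.08 (SE), adjusted p = 0.000275). In at-risk pups Ifi47 stood at 11.13, 11.00, 10.99 and 10.99 and 10.70, 10.81, 10.77 and 10.82, apart but under the fold limit at -0.25 ± 0.07 (SE). Igtp and Irgm1 were not called, at -0.52 and -0.06 in normal and 0.15 and 0.06 in at-risk pups.

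The chemokines fell in normal pups. Cxcl10 stood at 9.49, 9.67, 9.38 and 9.46 in stimulated normal DCs, under every naïve normal array, and changed by -0.82 ± 0.10 (SE), adjusted p = 4.72e-05. In stimulated at-risk DCs it stood at 9.50, 9.49, 9.47 and 9.61, which overlapped with the naïve at-risk arrays, and the difference was -0.17 ± 0.09 (SE), adjusted p = 0.309. Cxcl9 fell from 12.10, 12.12 and 12.33 to 11.75, 11.81, 11.79 and 11.84 in normal pups (-0.39 ± 0.08 (SE), adjusted p = 0.00408). Its difference was -0.31 (adjusted p = 0.0153) without AF79, just under the fold limit. The call was also lost with array weights, at -0.32. In at-risk pups Cxcl9 stood at 12.10, 12.19, 12.03 and 11.97 and 11.72, 11.84, 11.82 and 12.00.

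Of 5 sensors of foreign or altered nucleic acid, Ifih1 and Zbp1 were called in normal pups. Ifih1, the RNA sensor MDA5, fell from 10.49, 10.41 and 10.83 to 10.12, 9.90, 10.16 and 9.99 (-0.53 ± 0.10 (SE), adjusted p = 0.00225). In at-risk pups Ifih1 stood at 10.34, 10.28, 10.23 and 10.32 and 10.03, 10.29, 10.30 and 10.28, which overlapped. Zbp1, which binds Z-form nucleic acid, fell in normal pups from 9.99, 9.88 and 10.35 to 8.83, 9.40, 9.0 and 9.35 (-0.93 ± 0.15 (SE), adjusted p = 0.000706). In at-risk pups Zbp1 stood at 10.14, 9.94, 9.84 and 9.68 before and 9.34, 9.45, 9.26 and 9.61 after the injection (-0.48 ± 0.14 (SE), adjusted p = 0.0409). Its lesser probe set 1419604_at was also called in both, at -0.68 from 8.78, 8.77 and 7.93 to 7.78, 7.94, 7.70 and 7.82 in normal pups and at -0.58 from 8.79, 8.70, 8.65 and 8.40 to 7.86, 8.27, 8.10 and 7.97 in at-risk pups. The at-risk groups of Zbp1 did not overlap in either probe set. The call of its leading probe set in at-risk pups was lost without any 1 of AF80, AF81, AF82, AF88, AF89 and AF90, at -0.51 to -0.40. That of 1419604_at was lost without any 1 of AF80, AF81, AF82, AF88, AF90 and AF91, at -0.60 to -0.52, and in normal pups without AF76 or AF77, at -0.54. In normal pups it was also lost in a fit of the compared groups alone (adjusted p = 0.0791).

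Lgals3bp, a secreted galectin-binding glycoprotein, fell in normal pups from 11.01, 10.79 and 11.34 to 10.24, 10.05, 10.10 and 10.11 (-0.92 ± 0.13 (SE), adjusted p = 0.00018). In at-risk pups it stood at 10.65, 10.71, 10.79 and 10.64 and 10.08, 10.47, 10.19 and 10.58, with a difference of -0.37 ± 0.12 (SE), adjusted p = 0.0648. The ubiquitin ligase Trim21 was not called by its leading probe set, at 10.48, 10.40 and 10.88 and 10.56, 10.80, 10.80 and 10.91 in normal pups. Its lesser probe set, 1418077_at, rose there from 7.89, 7.80 and 8.16 to 8.08, 8.43, 8.30 and 8.45 (0.37 ± 0.11 (SE), adjusted p = 0.0392). This call was lost under median centring or quantile normalization of the arrays, at an unchanged direction. It was also lost in a fit of the compared groups alone (adjusted p = 0.117), and without any 1 of AF76, AF77, AF85, AF86, AF87 and AF90, at 0.29 to 0.37. Without AF79 the leading probe set was called higher, at 0.32 (adjusted p = 0.034).

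**Figure D2:**
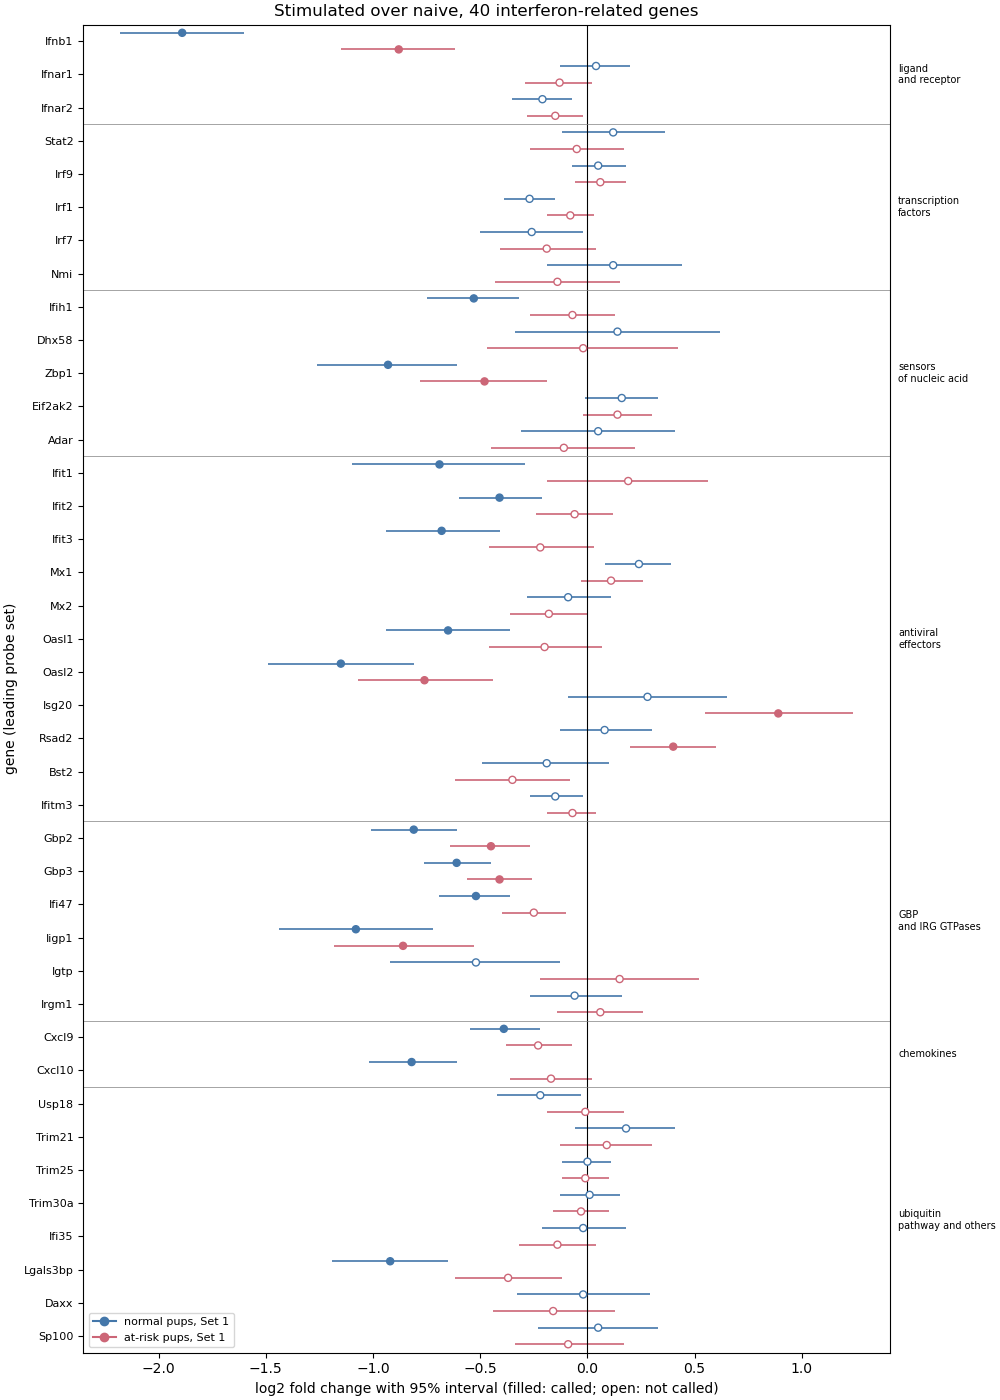
Log2 fold change of stimulated over naïve DCs of Set 1 (horizontal axis) for the leading probe sets of the 40 genes (vertical axis, grouped by role), in normal pups (blue) and at-risk pups (red), with 95% intervals. Filled points were called. Ifnb1 lies at -1.89 and -0.88, and Isg20 lies farthest to the right at 0.89 in at-risk pups.

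Isg20 and Rsad2 went up in at-risk pups. Isg20, an RNA exonuclease, stood at 10.29, 10.24, 10.57 and 10.17 in naïve at-risk and 11.28, 11.36, 10.87 and 11.33 in stimulated at-risk DCs (0.89 ± 0.16 (SE), adjusted p = 0.0018). In normal pups it stood at 10.20, 10.15 and 10.91 and 10.49, 10.78, 10.64 and 10.88, which overlapped through AF79 at 10.91, and the difference was 0.28 ± 0.17 (SE), adjusted p = 0.321. Without AF79 it was 0.52 ± 0.14 (SE), adjusted p = 0.0273, and Isg20 was called higher in normal pups too. Rsad2, the antiviral enzyme viperin, stood at 11.69, 11.42, 11.89 and 11.65 in naïve at-risk and 12.10, 12.01, 11.96 and 12.17 in stimulated at-risk DCs (0.40 ± 0.09 (SE), adjusted p = 0.0122). Its lesser probe sets were also called there, 1421009_at from 10.08, 9.93, 10.44 and 10.41 to 10.81, 10.66, 10.75 and 10.69 and 1421008_at from 6.68, 6.61, 6.94 and 6.76 to 7.49, 7.51, 7.38 and 7.40, with differences of 0.51 and 0.70. All 3 probe sets were apart between the at-risk groups. In normal pups Rsad2 stood at 11.60, 11.47 and 11.75 and 11.64, 11.69, 11.61 and 11.82, a difference of 0.08 ± 0.10 (SE), adjusted p = 0.642. The call of the leading one was lost without AF81, at 0.32, just under the fold limit, and that of 1421009_at without any 1 of AF80, AF81 and AF88 to AF91, at 0.41 to 0.53. With all 24 arrays in the fit none of the 3 was called in at-risk pups, where the leading one had an adjusted p of 0.0805.

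The allergen comparisons in normal and at-risk pups share no arrays. By leading probe sets, 6 genes were called lower in both, against 2.79% of all genes, and they were Ifnb1, Oasl2, Gbp2, Gbp3, Iigp1 and Zbp1. These are 6 of the 15 called lower in normal and 6 of the 6 called lower in at-risk pups. Over all genes, those called lower in both were 44.1% of those called lower in normal and 82.2% of those called lower in at-risk pups. Of the 40 genes, 23 had a negative difference in both. Whether a gene changed more in one kind of pup than in the other was tested by the difference of the maternal effects between stimulated and naïve DCs of Set 1. By limma, 0 of 54 probe sets passed, against 0.0486% of all, and 20 of 54 had an unadjusted p under 0.05, against 8.41% of all probe sets. The 3 with the largest differences were Ifnb1 at 1.00 ± 0.18 (SE), adjusted p = 0.0713, Ifit1 at 0.88 ± 0.26 (SE), adjusted p = 0.321 and Gbp2 probe set 1435906_x_at at 0.76 ± 0.25 (SE), adjusted p = 0.405. Without AF79 the latter 2 were 0.57 and 0.54. The 3 largest were then Ifnb1 at 1.04 (adjusted p = 0.0974) and Rsad2 probe sets 1421008_at at 0.83 (adjusted p = 0.0502) and 1421009_at at 0.70 (adjusted p = 0.339). None of these was called. Both stimulated groups of Ifnb1 lay under the lower quartile of all probe sets, where a maternal difference may not be measurable, so its value is limited to about the size of the naïve difference. Ifnb1 had a smaller adjusted p, down to 0.0288, and was called with all 24 arrays in the fit, with 1 probe set per gene, with a trended and robust variance and with array weights. Calls in normal and not in at-risk pups, such as those of Gbp2 probe set 1435906_x_at, Ifit2, Ifit3, Oasl1, Cxcl10 and Lgals3bp, are thus not shown to differ between the pups.

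Promoter windows of some of the genes that moved are shown, because the pathway acts on its targets through known short motifs. Each window printed held a match, and those of other called genes were not printed. The windows are those of RefSeq annotation on GRCm38.p6, each of 300 bases, mostly upstream of the start, and 34 of the 40 genes had one. They were searched on both strands for the ISRE as GAAANNGAAA, for the gamma-activated site (GAS) as TTCNNNGAA, and for an NF-kB site as GGGANNTTCC, where N is any base. Capitals mark these matches. No matches of different motifs overlap in the windows printed.

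Ifnb1 (chr4:88522745-88523044, minus strand): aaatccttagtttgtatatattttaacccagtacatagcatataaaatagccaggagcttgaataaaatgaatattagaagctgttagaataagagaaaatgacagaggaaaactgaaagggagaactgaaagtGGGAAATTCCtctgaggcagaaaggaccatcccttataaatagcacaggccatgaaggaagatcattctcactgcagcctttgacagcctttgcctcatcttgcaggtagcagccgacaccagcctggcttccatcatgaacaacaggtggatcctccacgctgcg
Cxcl10 (chr5:92348840-92349139, minus strand): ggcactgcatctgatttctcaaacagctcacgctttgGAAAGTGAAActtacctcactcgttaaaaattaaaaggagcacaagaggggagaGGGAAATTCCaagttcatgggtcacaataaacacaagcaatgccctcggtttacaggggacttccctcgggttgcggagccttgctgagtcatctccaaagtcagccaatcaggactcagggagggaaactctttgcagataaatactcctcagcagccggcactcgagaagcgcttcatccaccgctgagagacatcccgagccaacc
Gbp2 (chr3:142620413-142620712, plus strand): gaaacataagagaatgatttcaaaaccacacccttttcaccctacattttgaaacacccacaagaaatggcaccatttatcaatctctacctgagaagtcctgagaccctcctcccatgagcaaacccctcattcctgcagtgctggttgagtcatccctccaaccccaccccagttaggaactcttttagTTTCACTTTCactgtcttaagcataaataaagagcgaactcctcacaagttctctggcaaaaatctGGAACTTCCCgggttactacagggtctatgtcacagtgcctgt
Ifit3 (chr19:34583279-34583578, plus strand): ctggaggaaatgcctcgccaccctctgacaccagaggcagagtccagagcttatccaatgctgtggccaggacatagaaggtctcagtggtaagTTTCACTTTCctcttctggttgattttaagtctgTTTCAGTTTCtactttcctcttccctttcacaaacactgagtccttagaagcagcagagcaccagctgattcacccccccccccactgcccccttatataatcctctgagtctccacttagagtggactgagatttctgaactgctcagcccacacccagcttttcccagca
Rsad2 (chr12:26456403-26456702, minus strand): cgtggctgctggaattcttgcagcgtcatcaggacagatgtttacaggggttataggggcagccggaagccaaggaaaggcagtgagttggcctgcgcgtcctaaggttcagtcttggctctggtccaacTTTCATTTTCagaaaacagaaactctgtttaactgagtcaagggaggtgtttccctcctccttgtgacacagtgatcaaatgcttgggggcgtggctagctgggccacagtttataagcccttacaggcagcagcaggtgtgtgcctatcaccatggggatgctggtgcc

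The Ifnb1 window held an NF-kB match that began 116 bases before the start, and no ISRE of these letters. Cxcl10 held an ISRE and an NF-kB match, at 213 and 159 bases before the start. Gbp2 held an ISRE match at 59 bases before the start and an NF-kB match that began after it. Ifit3 held 2 ISRE matches, at 156 and 122 bases before the start. Rsad2, which rose in at-risk pups, held 1 ISRE match, as did genes that fell. The ISRE was found in 15 of the 34 genes and in 34.8% of their 46 windows, against 3.44% of all 32851 windows. The GAS was found in 11 genes and 23.9% of windows, against 8.30% of all windows, and the NF-kB match in 6 genes and 13.0% of windows, against 1.47%. Of the genes called in any comparison, Bst2, Cxcl10, Gbp2, Gbp3, Ifih1, Ifit1, Ifit3, Rsad2, Stat2, Trim21 and Trim30a held an ISRE match. The called genes Ifnb1, Ifnar2, Oasl1, Oasl2, Ifi47, Cxcl9, Lgals3bp, Ifit2 and Isg20 held none. Eif2ak2, Ifitm3, Igtp and Irgm1, which were not called, did hold an ISRE match, and the other genes with a window that were not called held none. These are matches of letters, and no binding was measured.

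Other genes of the interferon pathway, 56 of 77 listed, also fell more often than they rose after the injection. In normal pups 14 were called lower, against 5.76% of all probe sets, and 3 higher, against 5.73%, with a median of -0.09. In at-risk pups 8 were called lower, against 3.46%, and 1 higher, against 4.42%, with a median of -0.07. Ifng, which encodes interferon gamma, changed by -1.94 and -1.69 in normal and at-risk pups. The kinase gene Ikbke, which acts upstream of interferon transcription, changed by -1.27 and -0.99 in the same order. The antiviral Oas1a changed by -0.80 and -0.50, Slfn1 by -1.09 and -0.71 and Ifi27l2a by -0.62 and -0.41. The RNA sensor gene Tlr7 changed by -0.56 and -0.85, Gbp6 by -0.92 and -1.08 and Ms4a4b by -0.78 and -0.87. All 8 were called lower in both kinds of pup. The chemokine gene Cxcl11, at -0.82 and -0.06, Gbp7, at -0.60 and -0.20, and Rtp4, at -0.78 and -0.22, were called lower in normal pups and not in at-risk pups. Those called higher were Irgm2, at 0.41 and 0.36 and called in both, and the nucleic acid sensors Tlr3 and Aim2, at 0.35 each in normal pups. These 3, and also Cxcl11, Gbp7 and Rtp4, were picked out after their values were seen.

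Markers of several other cells differed between naïve and stimulated arrays of Set 1. Of all probe sets 5.76% were called lower and 5.73% higher in normal pups, and 3.46% and 4.42% in at-risk pups. Of 6 T cell markers 6 were called lower in normal and 5 in at-risk pups, and the mean level of the list was 10.37 to 10.53 in naïve normal, 10.02 to 10.07 in naïve at-risk, 8.67 to 10.04 in stimulated normal and 8.95 to 9.09 in stimulated at-risk DCs. Of 6 NK cell markers 5 were called lower in each kind of pup, with mean levels of 10.80 to 10.99, 10.71 to 10.89, 9.66 to 10.37 and 9.94 to 10.17 in the same order. Of 7 plasmacytoid DC markers 3 were called lower in each, with mean levels of 11.47 to 11.52, 11.33 to 11.57, 11.19 to 11.35 and 11.12 to 11.22. T and NK cell markers and many interferon genes thus had lower means in the same groups, although AF85 kept a T cell level of 10.04. Of 5 B cell markers 1 was called lower in normal and 0 in at-risk pups. The B cell levels were 9.87 to 10.0, 9.74 to 9.80, 9.70 to 9.76 and 9.70 to 9.92 in the same order. Of 8 macrophage and monocyte markers 4 and 2 were called lower, with mean levels of 12.08 to 12.31, 12.06 to 12.23, 11.59 to 11.76 and 11.67 to 11.81. All 6 platelet markers were called higher in both, with the mean level of the list going from 6.12 to 6.40 to 9.97 to 10.45 in normal and from 6.16 to 6.53 to 10.03 to 10.99 in at-risk pups, and all 4 erythroid markers were called higher as well. Of 7 neutrophil markers 4 were called lower and 1 higher in normal pups, and 0 lower and 2 higher in at-risk pups. Their mean levels were 11.28 to 11.72, 11.27 to 11.62, 11.10 to 11.39 and 11.66 to 12.14 in the order above. Of 6 endothelial markers 1 was called lower in each kind of pup, while 0 in normal and 3 in at-risk pups were called higher. The mean level of the 10 conventional DC markers lay between 12.06 and 12.34 in these 4 groups, and 2 of them were called higher in normal pups. In Set 2, after the same injection, the platelet level was 6.75 to 7.03 in normal and 8.40 to 9.82 in at-risk pups, though levels are not compared between sets. The part of these cells in the interferon results was not tested, and fewer cells of a type and less RNA per cell cannot be told apart in these samples.

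**Figure D3:**
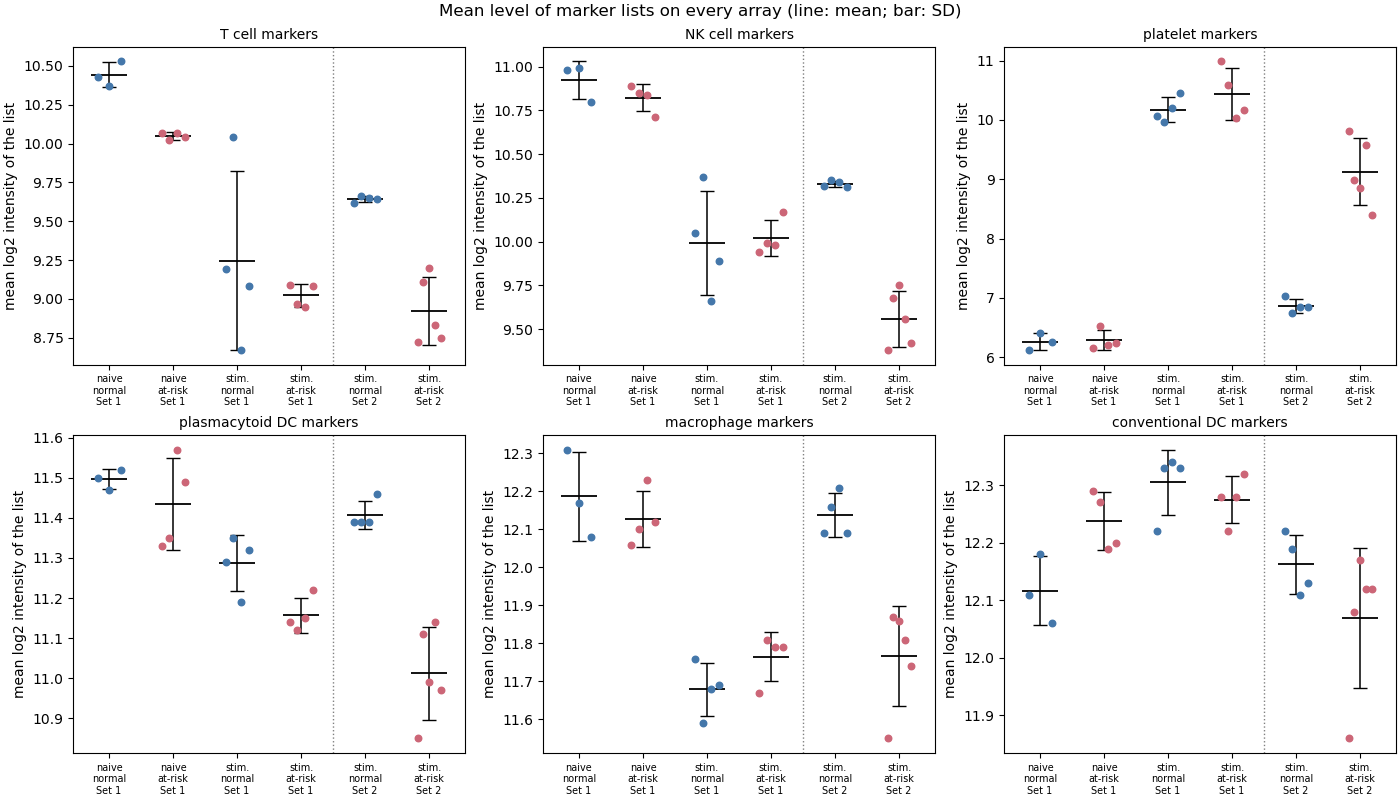
Mean log2 RMA intensity (vertical axis) of the lists of T cell, NK cell, platelet, plasmacytoid DC, macrophage and monocyte, and conventional DC markers in the 6 groups (horizontal axis), with 1 point per array, a line at the group mean and a bar of 1 SD. Platelet markers lie at 6.12 to 6.53 on the naïve arrays and at 9.97 to 10.99 on the stimulated arrays of Set 1, and T cell markers run the other way.

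Between stimulated at-risk and stimulated normal DCs of both sets, with set as a term, 2 of 54 probe sets were called higher, against 1.31% of all, and 0 lower. They were Isg20 (0.78 ± 0.16 (SE), adjusted p = 0.0217) and Rsad2 (0.44 ± 0.10 (SE), adjusted p = 0.0238). Isg20 stood at 10.79, 10.76, 10.87 and 10.96 in stimulated normal and 12.73, 11.37, 12.21, 11.46 and 11.54 in stimulated at-risk DCs of Set 2. Rsad2 stood there at 11.82, 11.83, 11.80 and 11.73 and 12.76, 11.98, 12.61, 12.04 and 12.08. Neither gene overlapped between the groups of Set 2, and the highest values of both were those of AF123 and AF125. These arrays also had the highest mean levels of the neutrophil markers, 12.31 and 11.71 against 11.07 to 11.24 on the other at-risk arrays, and of the erythroid markers, 11.52 and 11.09 against 10.20 to 10.37. In the pooled comparison 2 of 7 neutrophil, 6 of 6 platelet and 3 of 4 erythroid markers were called higher, and their part in the result was not tested. In Set 1 alone Rsad2 did not overlap, and Isg20 overlapped through the at-risk array at 10.87.

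Within the sets, Isg20 differed by 0.51 ± 0.16 (SE), adjusted p = 0.365 in Set 1 and by 1.02 ± 0.26 (SE), adjusted p = 0.0522 in Set 2. Rsad2 differed by 0.37 ± 0.09 (SE), adjusted p = 0.224 in Set 1 and by 0.50 ± 0.16 (SE), adjusted p = 0.119 in Set 2. Both genes thus had the same sign in each set without passing the test in either. Without AF123 the pooled differences were 0.66 (adjusted p = 0.00891) for Isg20 and 0.38 (adjusted p = 0.0146) for Rsad2, and without AF125 they were 0.72 (adjusted p = 0.0381) and 0.39 (adjusted p = 0.038). Both calls were lost with no term for set and without any of the normal arrays AF118, AF119 and AF120, at 0.74 to 0.76 for Isg20 and 0.43 to 0.44 for Rsad2. That of Rsad2 was also lost without AF121, at 0.42.

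In Set 1 the only member called was a lesser probe set of Rsad2, 1421008_at, so 1 of 54 was called higher, against 0.0707% of all. It stood at 6.65, 6.62, 6.58 and 6.76 in stimulated normal and 7.49, 7.51, 7.38 and 7.40 in stimulated at-risk DCs (0.79 ± 0.12 (SE), adjusted p = 0.0296). The groups were apart. In Set 2 the same probe set stood at 6.73, 6.38, 6.07 and 6.16 and 7.42, 6.04, 7.86, 5.92 and 6.02, where AF123 and AF125 lay above all normal arrays and the other 3 at-risk arrays lay under all of them. The Set 1 call was lost without any 1 of AF84 to AF89 and AF91, with values from 0.77 to 0.83. Of the 54 probe sets, 40 had a positive difference in Set 1, with a median of 0.10 against -0.01 over all probe sets. Of 7 neutrophil markers 7 were positive and 1 was called higher in this comparison, and the mean level of the list was 11.10 to 11.39 in normal and 11.66 to 12.14 in at-risk DCs. The part of these cells was not tested.

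In Set 2, 4 of 54 probe sets were called lower in at-risk DCs, against 2.04% of all, and 0 higher. Cxcl10 stood at 9.68, 9.73, 9.88 and 9.87 in normal and 9.43, 9.41, 9.45, 9.31 and 9.23 in at-risk DCs (-0.42 ± 0.07 (SE), adjusted p = 0.00861). Bst2, the tether that holds virions on the cell and also a surface marker of mouse plasmacytoid DCs, stood at 11.96, 11.91, 11.84 and 11.88 and 10.79, 11.40, 11.46, 11.36 and 11.16 (-0.66 ± 0.13 (SE), adjusted p = 0.0164). It was -0.55 (adjusted p = 0.00382) without AF123, its lowest array. Both genes were apart between the groups.

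The lesser probe set of Iigp1, 1419043_a_at, stood at 7.27, 7.32, 7.35 and 7.17 in normal and 6.93, 6.91, 6.77, 7.00 and 6.74 in at-risk DCs of Set 2 (-0.40 ± 0.07 (SE), adjusted p = 0.0125). The leading one, at 7.52, 7.81, 8.18 and 8.25 and 7.92, 7.79, 7.40, 7.87 and 7.86, overlapped (-0.17 ± 0.16 (SE), adjusted p = 0.543). The lesser probe set of Trim30a, a ubiquitin ligase that dampens NF-kB signaling, stood at 8.30, 8.49, 8.26 and 7.89 and 7.25, 7.23, 7.86, 7.77 and 7.66 (-0.68 ± 0.16 (SE), adjusted p = 0.044). Its groups were apart too, but the call was lost without AF123, at -0.60 (adjusted p = 0.0718). The calls of Bst2 and Trim30a were lost without any of AF118, AF119 and AF120, at -0.68 to -0.64 and -0.67 to -0.60, and that of Iigp1 without AF119 or AF120, at -0.39 and -0.38. That of Trim30a was also lost without AF124, AF126 or AF127, at -0.73 to -0.60.

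Bst2 and Trim30a were not called in Set 1, but without AF79 Bst2 was called lower after the injection in normal pups, at -0.44 (adjusted p = 0.00117). There Bst2 stood at 12.10, 12.03 and 11.33 in naïve normal, 11.63, 11.72, 11.48 and 11.67 in stimulated normal, 11.93, 11.92, 12.08 and 11.92 in naïve at-risk and 11.66, 11.57, 11.55 and 11.64 in stimulated at-risk DCs, where the at-risk groups were apart with a difference of -0.35 ± 0.13 (SE), adjusted p = 0.111. The lesser probe set of Trim30a, 1417961_a_at, stood at 8.88, 9.06 and 8.53, 8.90, 8.98, 8.71 and 8.98, 9.15, 9.18, 9.14 and 8.77 and 9.04, 8.89, 8.63 and 9.03 in the same order.

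Oasl2, Oasl1, the Ifit genes and Zbp1, called lower after the injection in Set 1, overlapped between the stimulated groups of Set 2. In normal and at-risk DCs of that set, Oasl2 stood at 5.90, 6.44, 6.33 and 6.56 and 6.48, 6.0, 5.79, 6.0 and 5.90. Oasl1 stood at 8.14, 8.23, 8.19 and 8.31 and 8.60, 8.38, 8.10, 8.41 and 8.25. Ifit3 stood at 9.45, 9.42, 9.57 and 9.72 and 9.71, 9.69, 9.50, 9.53 and 9.40 and had a difference of 0.03 ± 0.09 (SE). Ifit1 stood at 7.90, 7.92, 8.17 and 8.22 and 8.94, 8.12, 8.16, 8.08 and 8.15, where the highest value was that of AF123. Ifit2 lay lower on 4 of 5 at-risk arrays, at 9.34, 9.35, 9.34 and 9.27 and 9.08, 9.12, 9.16, 9.35 and 9.04 (-0.17 ± 0.07 (SE), adjusted p = 0.19). Zbp1 likewise had 4 of 5 at-risk arrays under all normal ones, at 9.91, 9.76, 9.63 and 9.60 and 9.03, 9.37, 9.66, 9.52 and 9.48 (-0.31 ± 0.12 (SE), adjusted p = 0.183).

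Among these GTPases in Set 2, Gbp2 stood at 9.12, 9.16, 9.16 and 9.16 and 8.92, 9.05, 9.21, 9.11 and 9.08 in normal and at-risk DCs and Gbp3 at 9.29, 9.45, 9.54 and 9.67 and 9.58, 9.58, 9.29, 9.49 and 9.34. Their differences were -0.08 ± 0.07 (SE) and -0.03 ± 0.10 (SE). The chemokine gene Cxcl9 was level too, at 11.94, 11.94, 11.91 and 11.95 and 11.96, 11.83, 11.88, 11.91 and 11.96. Ifih1 stood at 10.27, 10.31, 10.46 and 10.56 and 10.58, 10.60, 10.21, 10.31 and 10.54 and Lgals3bp at 10.65, 10.57, 10.73 and 10.82 and 10.60, 10.66, 10.27, 10.57 and 10.53. Trim21 stood at 10.87, 10.94, 10.98 and 10.95 and 10.98, 10.93, 10.88, 11.03 and 10.97. The lesser probe set of Stat2, 1450403_at, was apart, at 8.71, 8.64, 8.55 and 8.60 and 7.85, 8.52, 8.31, 8.24 and 8.41, and was not called (-0.36 ± 0.12 (SE), adjusted p = 0.132).

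On the same arrays of Set 2, where 2.04% of all probe sets were called lower, 4 of 7 plasmacytoid DC markers were. Their mean levels were 11.39 to 11.46 in normal and 10.85 to 11.14 in at-risk DCs. Of 6 T cell markers 5 were called lower, with 9.62 to 9.66 against 8.72 to 9.20, and of 6 NK cell markers 5, with 10.31 to 10.35 against 9.38 to 9.75. None of the 3 lists overlapped between the groups. All 6 platelet markers were called higher, with 6.75 to 7.03 against 8.40 to 9.82, and 4.62% of all probe sets were called in either direction. Of the other pathway genes 8 of 56 were called lower and 0 higher, namely Ifng at -1.06, Ifitm1 at -0.93, Slfn1 at -0.79, Tlr7 at -0.74, Ms4a4b at -0.73, Ddx60 at -0.44, Cxcl11 at -0.37 and Rtp4 at -0.36. In the pooled stimulated comparison 2 of 56 were called lower, Ifng at -0.75 and Gbp6 at -0.34, and 1.73% of all probe sets were called in either direction. The part of these cell types in the interferon results was not tested.

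**Figure D4:**
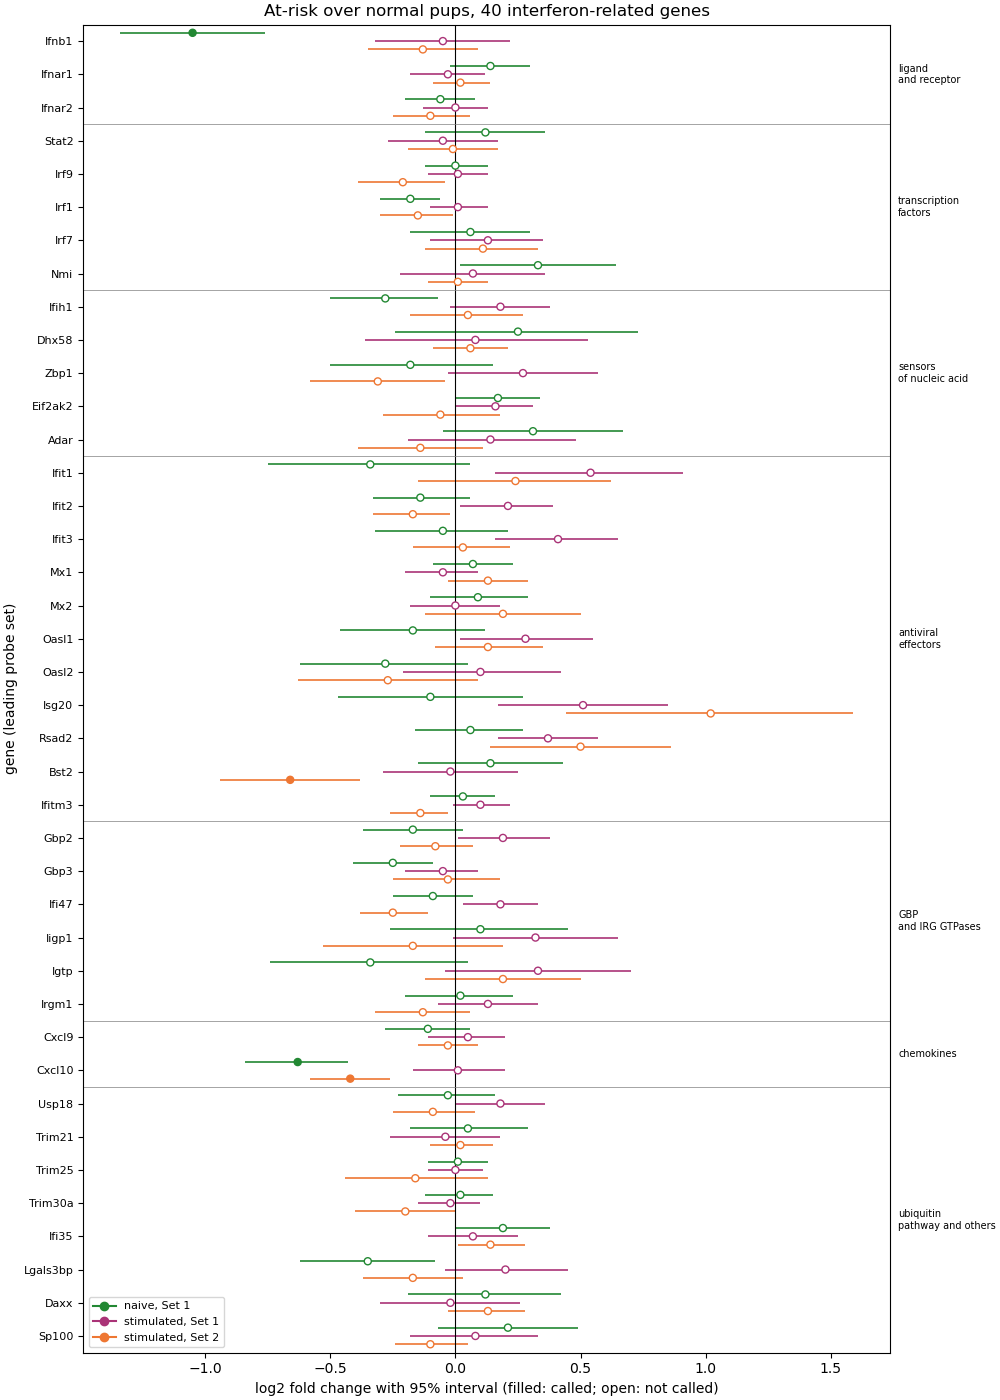
Log2 fold change of at-risk over normal DCs (horizontal axis) for the leading probe sets of the 40 genes (vertical axis, grouped by role) in naïve DCs of Set 1 (green), stimulated DCs of Set 1 (purple) and stimulated DCs of Set 2 (orange), with 95% intervals. Filled points were called. Ifnb1 is at -1.05 in naïve DCs and at -0.05 and -0.13 in stimulated DCs, and Isg20 is at 0.51 and 1.02 in stimulated DCs of Sets 1 and 2.

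The maternal effect after the injection differed between the sets for 4 of 54 probe sets, all lower in Set 2, against 1.13% of all called lower. For Ifi47 the effect was 0.18 in Set 1 and -0.25 in Set 2, where it stood at 11.00, 11.01, 11.03 and 11.06 in normal and 10.84, 10.81, 10.63, 10.83 and 10.77 in at-risk DCs, and the difference of effects was -0.43 ± 0.09 (SE), adjusted p = 0.0198. For Cxcl10 the effects were 0.01 and -0.42 (-0.44 ± 0.10 (SE), adjusted p = 0.0331). For Bst2 they were -0.02 and -0.66 (-0.64 ± 0.15 (SE), adjusted p = 0.04), and for Iigp1 probe set 1419043_a_at 0.47 and -0.40 (-0.87 ± 0.20 (SE), adjusted p = 0.0319). The count of 4 fell to 0, 1 or 2 without any 1 of AF84, AF86, AF87, AF89, AF90, AF91, AF118, AF119, AF120 and AF127. It was 0 without AF86, with values of -0.39, -0.40, -0.59 and -0.77, and with all 24 arrays in the fit only Ifi47 was. Isg20 and Rsad2 showed no difference between the sets that passed, at 0.50 ± 0.31 (SE) and 0.13 ± 0.19 (SE). Of the other pathway genes 5 of 56 differed, all lower in Set 2, with Rtp4 at -0.90, Slfn1 at -1.10, Ifitm1 at -1.21, Cxcl11 at -0.73 and Ms4a4c at -0.42. Set, amplification and the batch of pups cannot be told apart.

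Of the 40 genes, 22 had a called probe set in at least 1 of the 8 comparisons, against 21.4% of all 12393 genes, and 18 had none. The latter included the antiviral GTPases Mx1 and Mx2, the kinase gene Eif2ak2, the RNA sensor gene Dhx58, the RNA editing gene Adar, Ifitm3, Usp18, Irf1, Irf7, Irf9, Nmi, Sp100, Daxx, Ifi35, Trim25, Igtp, Irgm1 and Ifnar1. Over all comparisons the differences of their leading probe sets ran from -0.52 to 0.68, both of Igtp, and both rested on AF79, since without it they were -0.19 and 0.34. In the naïve normal group the median SD of the 54 probe sets was 0.21, against 0.15 over all probe sets, while in the other 5 groups it was 0.09 to 0.15.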

How the data were processed

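RNA of splenic CD11c+ DCs was measured on 24 arrays in 6 groups, taken from the sample labels, with sets by array number. The authors deposited RMA values as a linear intensity per probe set. The 24 medians ran from 272.1 to 297.8. By the methods the sets were preprocessed separately with custom probe sets, while the deposited table held Affymetrix probe sets, so 64 control probe sets were left out and genes were named from the platform annotation. Log2 was taken with no pseudocount. Models were fitted in limma 3.58.1 (R 4.3.3, lmFit and eBayes) over all 22626 probe sets and checked on simulated data. Naïve, allergen and Set 1 comparisons used the 15 arrays of Set 1, Set 2 its 9 arrays, the pooled comparison 17 arrays with set as a term, and the difference between sets their interaction. Members, gene lists and tests were chosen with earlier results of these data known. Every member with a called probe set was named, with Ifnb1, the receptor chains, Stat2 and Irf9, and the 3 largest differences where no member was called. Of the other pathway genes at most 8 called ones were to be named for a comparison, and for the injection more than 8 were named. Alternatives were all 24 arrays or only the compared groups in the fit, no term or a random block for set, no fold threshold, median centring, quantile normalization, a filter on dim probe sets (mean signal below the 40th percentile), 1 probe set per gene, trended and robust variance, array weights and each array left out. The number of arrays limits the precision.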

Additional observations from a re-analysis of the deposited data

Results flagged for a closer look

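In 13 of 155 groups of 4 or 5 arrays, 1 array of a named probe set stood far from the others by Dixon's criterion, and chance gives about 1 in 20 groups. In stimulated at-risk DCs of Set 2, AF123 had Ifnar1 at 11.00 against 11.05 to 11.07 and Ifit1 at 8.94 against 8.08 to 8.16, and AF125 had Iigp1 at 7.40 against 7.79 to 7.92. In stimulated normal DCs of Set 2, AF121 had Ifit2 at 9.27 against 9.34 to 9.35 and AF118 had Gbp2 at 9.12 against 9.16 on each of the others. In stimulated normal DCs of Set 1, AF84 had Ifnar2 at 11.45 against 11.26 to 11.27. In stimulated at-risk DCs of Set 1, AF90 had Isg20 at 10.87 against 11.28 to 11.36 and Ifnar2 probe set 1427691_a_at at 10.70 against 10.49 to 10.50, and AF88 had Ifih1 at 10.03 against 10.28 to 10.30. In naïve at-risk DCs, AF81 had Oasl1 at 8.56 against 8.23 to 8.25, AF80 had Ifi47 at 11.13 against 10.99 to 11.00, AF82 had Bst2 at 12.08 against 11.92 to 11.93, and AF83 had Trim30a probe set 1417961_a_at at 8.77 against 9.14 to 9.18. The naïve normal group, with 3 arrays, was not tested this way.

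The stimulated maternal effect differed between the sets, by a test of the interaction, for Ifi47 (-0.43), Iigp1 probe set 1419043_a_at (-0.87), Cxcl10 (-0.44) and Bst2 (-0.64). The cause was not tested.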

How the results depend on the processing

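The counts of members called after the injection stayed within 1.5 times under all alternatives, at 15 to 25 in normal and 8 to 15 in at-risk pups. In naïve DCs 1 member was called in place of 2 with only the compared groups in the fit, where Cxcl10 was lost, and 1 without dim probe sets, where Ifnb1 was not tested. It was 2 without each array in turn. In the pooled stimulated comparison 4 were called with all 24 arrays in the fit and 0 with no term for set, against 2, and 0 to 3 with 1 array left out. In Set 1 the count of 1 became 0 with all 24 arrays, without dim probe sets and with 1 probe set per gene, 2 with only the compared groups, with trended and robust variance and with array weights, and 0 to 2 with 1 array left out. In Set 2 it was 1 to 4 with 1 array left out. For the difference of maternal effects the count of 0 became 2 with all 24 arrays, 1 with 1 probe set per gene, 1 with trended and robust variance and 2 with array weights, and 0 with each array left out. For the difference between sets the count of 4 became 1 with all 24 arrays and 9 with array weights, and 0 to 6 with 1 array left out, where it was 0 without AF86. The causes were not tested. Over the named probe sets 1013 values under alternatives kept direction and call, 115 kept direction and lost the call, 4 (Ifnb1, difference of maternal effects) gained it, and 0 changed direction. Many of these values could not change direction. A filter, another variance, or an array left out of a group not compared leaves the difference as it was. Dropping the fold threshold cannot lose a call. The counts of 1013 and 0 were thus partly fixed in advance. No paired analysis was possible because the arrays carry array numbers that no groups share. Ifnb1 lay near the dim end of the signal, and no detection calls were at hand to bound it.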
